A study of Mus musculus with 24 samples.

Results

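Olfml3 and 9 genes that lie around it on mouse chromosome 3 were followed through 24 RNA-seq libraries, 10 of the 56691 genes in the deposited tables. Olfml3 and the predicted gene Gm10964 were chosen by their measured values in RAW264.7 libraries labelled knockout, so those values are given as a description with no test. The other 8 are neighbours in the order Syt6, then, past Olfml3 and Gm10964, Hipk1, Dclre1b, Ap4b1, Ptpn22, Rsbn1, Phtf1 and Magi3, and the 10 genes together span 645.1 kb.

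The study compared macrophages with and without Olfml3, at rest and after lipopolysaccharide (LPS), which Gram-negative bacteria carry on their surface. The 8 groups of 3 libraries were the mouse line RAW264.7, which resembles macrophages, and bone marrow-derived macrophages (BMDMs), each wild type or labelled Olfml3 knockout, and each given PBS or LPS at 100 ng/mL for 4 h. The RAW264.7 knockout came from a single-cell clone made with lentiviral Cas9 and a guide RNA and is described as edited in each copy of Olfml3, with clones screened by Sanger sequencing. The edits themselves are not in the files used here, and neither the guide used nor a control guide in the wild-type cells is stated. In RAW264.7 cells, differences due to the edit, the clone or the lentiviral Cas9 therefore cannot be told apart. BMDMs were grown in L929-conditioned medium from marrow of male C57BL/6 mice, wild type or with a global Olfml3-/- made by CRISPR-Cas9. Whether the replicates are separate cultures or animals is not in the labels, so p-values here measure the spread between these samples. The genotype tag contradicts the title in 12 of 24 samples. Titles were used, so each direction given here between genotypes rests on the titles.

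OLFML3 is a secreted glycoprotein with an olfactomedin (OLF) domain, known from the extracellular matrix and, in the brain, as a gene expressed by microglia. LPS is sensed by the receptor TLR4 on macrophages, which then switch on inflammatory genes through NF-kappaB and interferon factors. Cas9 with a guide breaks DNA beside a short motif, the PAM, and repair leaves small insertions or deletions that need not stop a gene from being transcribed, so a gene-level count does not show whether the coding sequence was edited.

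The study's guides for Olfml3 are shown because their sites can be placed relative to the genes described here: both guide sites lie in exon 3 of 3 of Olfml3, and Gm10964 starts 1365 bases from the start of Olfml3 on the other strand. Capitals mark the PAM in the guides, which match chr3:103736100-103736119 on the minus strand and chr3:103736427-103736446 on the plus strand of GRCm38, 327 bases apart.
Olfml3-1 gRNA: atgtcccagagagaacgcagAGG
Olfml3-2 gRNA: gctgccccgtgcctacccagGGG
Gm10964 is annotated as protein coding with 120 coding bases in 2 exons. Exon 2 lies within the gene Hipk1, on the opposite strand, and shares 0 bases with exons of Hipk1. Phtf1 and Magi3 also overlap on opposite strands, by 11340 bases and 0 exonic bases. Since the strand setting of the libraries is not stated, counts of these overlapping genes cannot be assigned to a strand.

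Library depth, as total counts, ran from 13145037 to 16142555 in RAW264.7 wild type with PBS, from 14312570 to 16478616 in labelled knockout with PBS, from 12801180 to 14712413 in wild type with LPS and from 11638273 to 13176774 in labelled knockout with LPS. In BMDMs it ran from 21881039 to 22256133 in wild type with PBS, from 17746364 to 22873094 in knockout with PBS, from 21995070 to 22467927 in wild type with LPS and from 17121240 to 22815104 in knockout with LPS. Levels are the deposited FPKM, fragments per kilobase of exon, scaled to the library total. The tables of the cell types were normalized separately, so levels in RAW264.7 cells and BMDMs are set side by side only.

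Macrophage markers were present in every library. All 8 markers (Cd68, Adgre1, Csf1r, Itgam, Fcgr1, Lyz2, Mertk, Spi1) were above 0 in BMDMs, with a summed FPKM of 11988 to 17743 and Lyz2 the most abundant. In RAW264.7 cells 7 of 8 were above 0, with Mertk at 0. Their summed FPKM was 2975 to 3116 in wild type and 1037 to 1436 in the libraries labelled knockout. Lyz2 made up most of this difference, at 2039 to 2264 in wild type and 259 to 433 in labelled knockout, and the part of it in the results on the members was not tested. Summed FPKM reached at most 1.48 for fibroblast and pericyte markers, 6.03 for endothelial, 8.58 for T cell (Cd4 alone in BMDMs), 0.28 for B cell, 0.15 for NK cell, 7.9 for neutrophil and 1.08 for dendritic cell markers. In bulk samples, fewer cells of a type and less RNA per cell cannot be told apart.

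RAW264.7 labelled knockout with PBS, replicate 1, stood apart from its group. Across genes its mean correlation was 0.964 with the other libraries of its group and 0.973 with wild type given PBS. Its summed FPKM was 356156, against 296109 and 295256 in replicates 2 and 3 and 357349 to 361580 in wild type with PBS. It lay beside wild type for Hipk1, Dclre1b and Rsbn1 and with its own group for Olfml3, Gm10964, Ptpn22 and Phtf1. For Hipk1, Dclre1b and Rsbn1, the fold change of labelled knockout against wild type with PBS is given with and without it. Fold changes of Olfml3 and Gm10964 are given with it only, beside the value of each library.

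Olfml3 was low in wild-type RAW264.7 cells and higher, not lower, in the libraries labelled knockout. With PBS its FPKM was 0.19, 0.15 and 0.15 in wild type (16, 15 and 12 counts) and 0.65, 1.01 and 1.19 in labelled knockout (66, 100 and 105 counts). With LPS it was 0.13, 0.13 and 0.29 in wild type and 18.9, 18.8 and 18.3 in labelled knockout (1357, 1524 and 1383 counts). The genotypes did not overlap under either treatment, and the labelled knockout with LPS stood far above the other 3 groups. As a description, the log2 fold change of labelled knockout against wild type was 1.96 (SE 0.24) with PBS and 6.10 (SE 0.24) with LPS. Within the labelled knockout, LPS against PBS was 4.20 (SE 0.24), while in wild type it was 0.06 (SE 0.24; limma adjusted p = 0.988), with overlapping libraries and 1 of 3 above every PBS library. A log2 value with an added pseudocount, here 0.1, understates the change of genes at such low levels.

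In BMDMs Olfml3 had the opposite order. Its FPKM with PBS was 0.61, 0.53 and 0.65 in wild type (84, 71 and 88 counts) and 0.03, 0.01 and 0.01 in knockout (4, 1 and 1 counts). After LPS it was 0.24, 0.25 and 0.25 in wild type and 0.01, 0 and 0 in knockout (1, 0 and 0 counts). Each knockout library lay below each wild-type library. Olfml3 fell in the knockout with PBS by limma (log2 fold change -2.58, SE 0.09, adjusted p = 2.33e-07, lower in 3 of 3 libraries) and with LPS (limma, -1.75, SE 0.09, adjusted p = 6.35e-06, lower in 3 of 3). The call with LPS was lost with a pseudocount of 1. Summed over the group and scaled by depth, the counts were 38.0 times lower with PBS (95% counting interval 17.2 to 104.5, 243 against 6 counts) and 94.0 times lower with LPS (16.5 to 3750, 102 against 1 counts). Intervals and floors given here cover counting error only.

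Ordered by mean FPKM ± SD (n = 3), Olfml3 in RAW264.7 cells stood at 18.7 ± 0.311 in labelled knockout with LPS, 0.950 ± 0.275 in labelled knockout with PBS, 0.183 ± 0.0924 in wild type with LPS and 0.163 ± 0.0231 in wild type with PBS. The last pair did not differ beyond its spread. In BMDMs the order was wild type with PBS at 0.597 ± 0.0611, wild type with LPS at 0.247 ± 0.00577, knockout with PBS at 0.0167 ± 0.0115 and knockout with LPS at 0.00333 ± 0.00577. Here too the last pair overlapped.

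Gm10964 was counted in the RAW264.7 libraries labelled knockout and in none of the 6 wild-type RAW264.7 libraries. Its FPKM in labelled knockout was 7.08, 6.24 and 9.90 with PBS (14, 12 and 17 counts) and 132, 140.4 and 163 with LPS (185, 222 and 239 counts). The treatments did not overlap, and replicate 1 with PBS lay within its group. Against a floor of 3 counts over the wild-type group, Gm10964 was at least 13.05-fold higher with PBS (43 counts) and at least 243.7-fold higher with LPS (646 counts). Within the labelled knockout, LPS against PBS was 4.23 on the log2 scale (SE 0.15), beside 4.20 for Olfml3. In BMDMs Gm10964 had 0 to 4 counts in any library, 4 of 12 libraries had any, and a difference was not detectable at this depth.

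**Figure D1:**
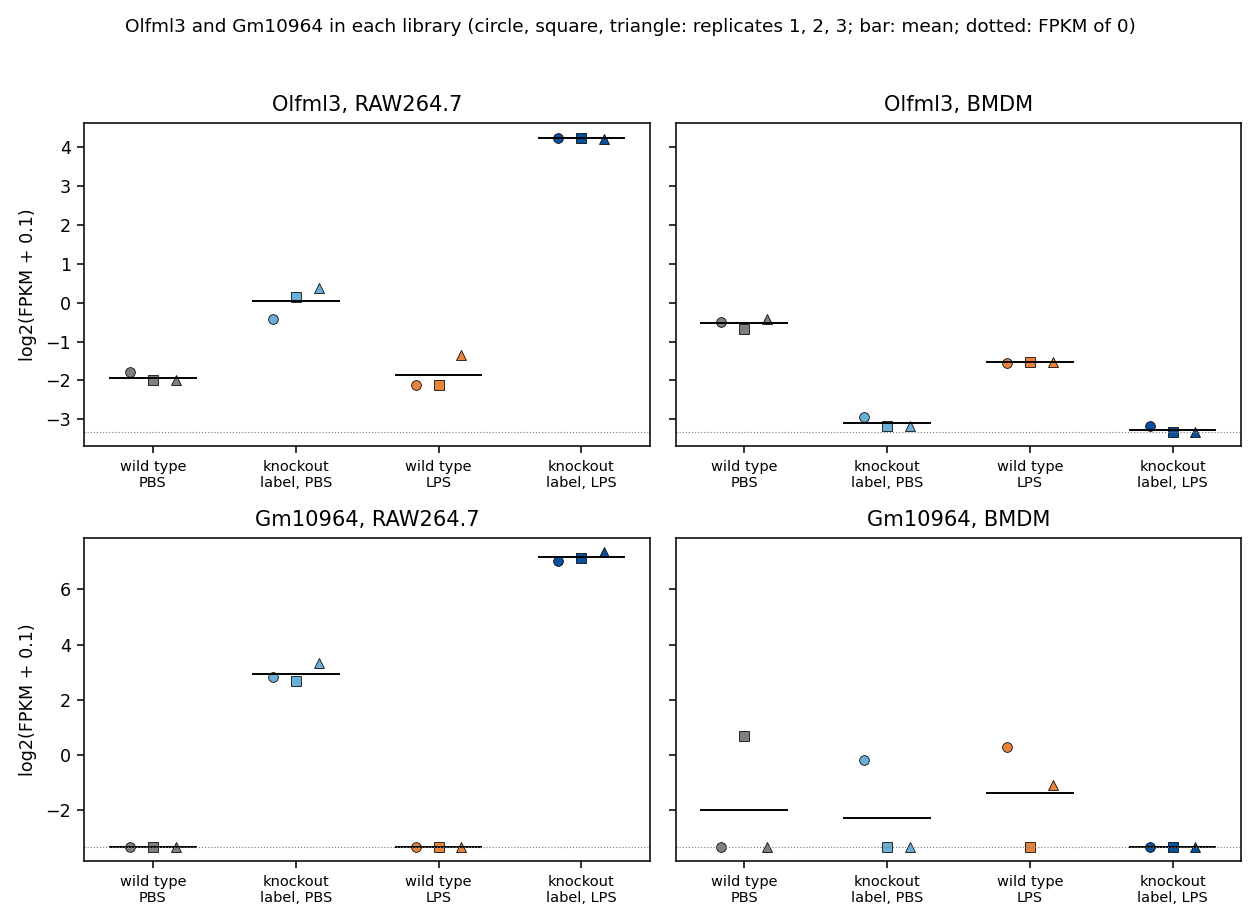
Log2(FPKM + 0.1) of Olfml3 and Gm10964 in each library (circle, square and triangle, replicates 1, 2 and 3) with group means (bars), by cell type, genotype and treatment, and an FPKM of 0 as a dotted line. Olfml3 reached a mean FPKM of 18.7 in RAW264.7 labelled knockout with LPS against 0.183 in wild type with LPS, and in BMDMs it was 0.597 in wild type against 0.0167 in knockout, both with PBS.

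The other neighbours were examined to see whether they differ where Olfml3 does. Called means a limma adjusted p under 0.05 with a change of 1.5-fold or more up or down. In RAW264.7 labelled knockout against wild type with PBS, Olfml3 and Gm10964 left out, 2 of the other 8 members were called, Rsbn1 higher and Ptpn22 lower. With LPS 2 of these 8 were called, Hipk1 higher and Ptpn22 lower. Of all genes tested, 8.55% were called with PBS and 17.3% with LPS. Nothing is read from the counts of members, since the contrasts contain the libraries by which Olfml3 and Gm10964 were chosen. Without replicate 1 of labelled knockout with PBS, Hipk1, Ptpn22 and Rsbn1 were called in each contrast, and the count over all genes with PBS went from 2287 to 5523.

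Ptpn22, a phosphatase that restrains antigen receptor signalling and is expressed in myeloid cells, was lower in the libraries labelled knockout. Its FPKM with PBS was 12.3, 11.9 and 11.7 in wild type and 6.78, 6.47 and 6.93 in labelled knockout. With LPS it was 16.9, 16.5 and 16.9 in wild type and 8.73, 9.87 and 9.15 in labelled knockout. The genotypes did not overlap, and replicate 1 lay with its group. The log2 fold change was -0.82 (SE 0.07) with PBS and -0.85 (SE 0.07) with LPS.

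Rsbn1, a nuclear protein named for round spermatids, went the other way. Its FPKM with PBS was 3.02, 3.12 and 3.23 in wild type and 3.94, 11.4 and 12.1 in labelled knockout. After LPS it was 14.8, 13.7 and 13.0 in wild type and 25.3, 26.4 and 23.8 in labelled knockout. The PBS value rests on replicates 2 and 3: the log2 fold change was 1.36 (SE 0.35), 1.88 without replicate 1, 1.13 without replicate 2 and 1.08 without replicate 3 of labelled knockout, and the call was lost without replicate 2, replicate 3 or any 1 wild-type library (1.34, 1.36 and 1.38 without replicates 1, 2 and 3). With LPS it was 0.86 (SE 0.35), not called, and called at 0.86 without replicate 1 of labelled knockout with PBS.

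Hipk1, a nuclear kinase that binds homeodomain proteins, had a spread in labelled knockout with PBS that came from the same library. Its FPKM with PBS was 15.6, 14.8 and 15.3 in wild type and 13.9, 25.4 and 25.4 in labelled knockout. After LPS it was 13.6, 12.3 and 13.9 in wild type and 21.3, 21.3 and 20.9 in labelled knockout. The log2 fold change with PBS was 0.45 (SE 0.20), not called, and 0.73 and called without replicate 1. With LPS it was 0.67 (SE 0.20), and the call was lost without any 1 of the 6 libraries compared: 0.69, 0.62 and 0.71 without wild-type replicates 1, 2 and 3, and 0.67, 0.67 and 0.68 without labelled knockout replicates 1, 2 and 3.

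For the remaining neighbours in RAW264.7 cells, values are for labelled knockout against wild type. The genotypes were apart for Phtf1 with PBS and LPS, for Magi3 and Dclre1b with LPS and for Ap4b1 with PBS, and overlapped otherwise. Dclre1b, the Apollo nuclease that protects telomeres and repairs crosslinks, had log2 fold changes of 0.25 with PBS (0.38 without replicate 1) and 0.15 with LPS. Ap4b1, a subunit of the AP-4 adaptor complex of the trans-Golgi network, had -0.38 and -0.39. Phtf1, a membrane protein of the endoplasmic reticulum, had 0.35 and 0.25. Magi3, a scaffold protein of cell junctions, stayed at 0.08 to 0.3 FPKM and had 0.13 and 0.58. Syt6, a synaptotagmin of vesicle fusion, had 0 to 7 counts in RAW264.7 libraries and 0 in all 12 BMDM libraries, where it was not tested. None of these 5 was called in the PBS or LPS contrast by limma.

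**Figure D2:**
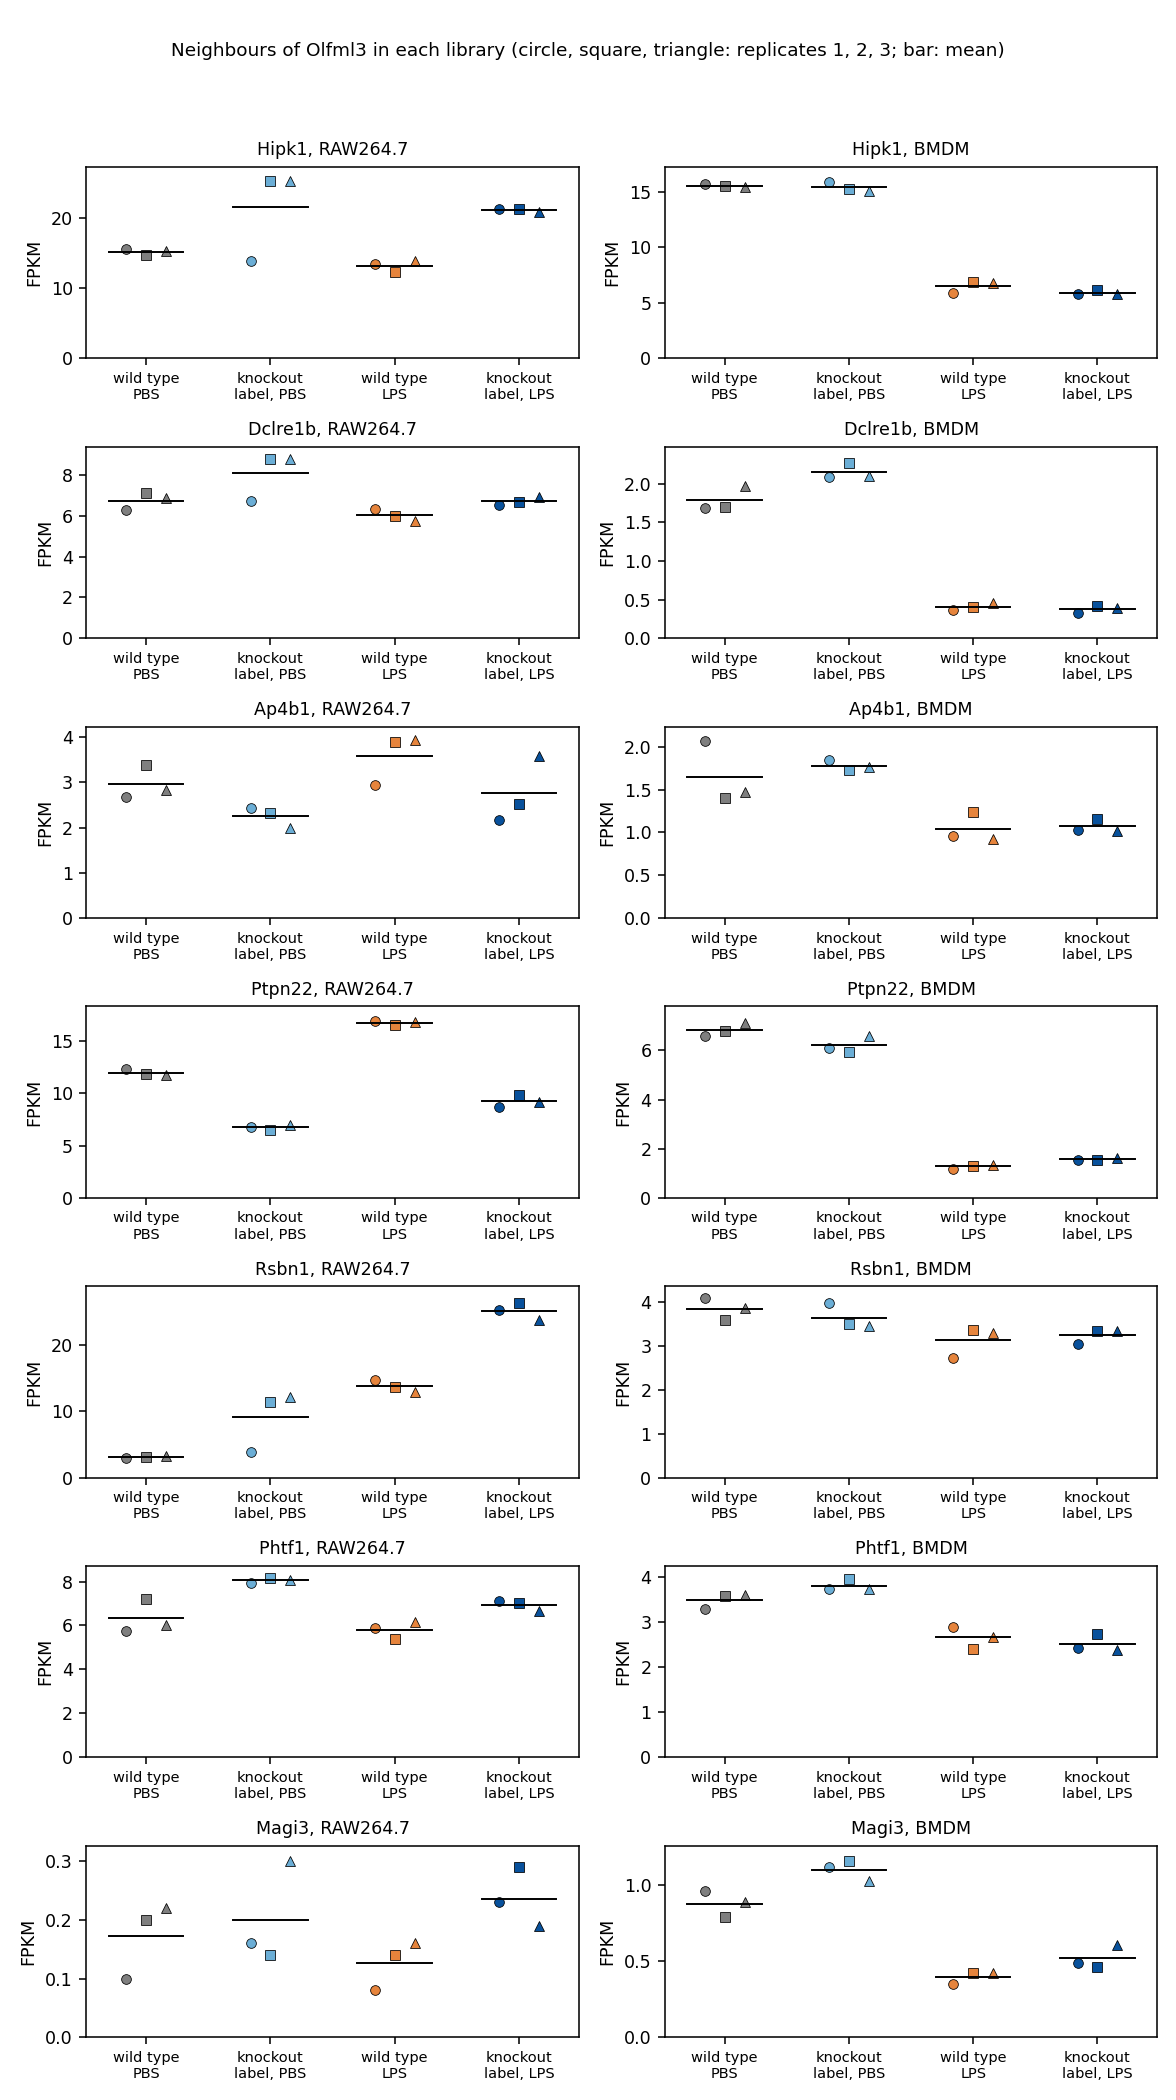
FPKM of 7 neighbours of Olfml3 in each library (circle, square and triangle, replicates 1, 2 and 3) with group means (bars), by cell type, genotype and treatment. In RAW264.7 cells with PBS, Rsbn1 was 3.94 in replicate 1 of labelled knockout against 11.4 and 12.1 in replicates 2 and 3, while Ptpn22 was 6.47 to 6.93 in all 3.

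In BMDMs, knockout against wild type, Olfml3 was lower and no neighbour was called by limma. With PBS 1 of 9 members tested was called, where 1.82% of all genes were, and with LPS 1 of 9, where 4.76% were; both calls are Olfml3. Of the other 8 members tested, limma called 0 with PBS and 0 with LPS, with 2 and 2 at an unadjusted p under 0.05. Of all 26973 genes tested by limma, 3968 with PBS and 7395 with LPS were at an unadjusted p under 0.05. edgeR called 0 and 0 (3 and 2 unadjusted) and DESeq2 0 and 0 (1 and 2 unadjusted). With PBS the 95% interval of the log2 fold change ran from -0.16 to 0.13 for Hipk1, from -0.28 to 0.00 for Ptpn22, from -0.29 to 0.13 for Rsbn1 and from -0.05 to 0.30 for Phtf1. Dclre1b (0.04 to 0.47) and Magi3 (0.06 to 0.54) were those at an unadjusted p under 0.05 with PBS, and the groups of each were apart.

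With LPS the median of all genes with a mean FPKM of at least 1 was 0.14 in knockout against wild type, so values are also given relative to it. Ptpn22 had FPKM 1.19, 1.30 and 1.35 in wild type and 1.56, 1.53 and 1.62 in knockout. The groups did not overlap, and its log2 fold change was 0.28 (limma, SE 0.06, adjusted p = 0.0131, higher in 3 of 3), under the fold needed for a call and 0.13 relative to the median. Magi3 came next by adjusted p, with a larger log2 fold change of 0.32 (limma, SE 0.11, adjusted p = 0.0742, higher in 3 of 3), 0.17 relative to the median. In RAW264.7 cells the corresponding value of Ptpn22 was -0.85, and this difference between the cell types was not tested.

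LPS against PBS shows how the locus responds to the stimulus in each cell type. In wild-type RAW264.7 cells 1 member was called by limma out of 9 with any counts there, where 18.3% of all genes tested were, and the median of all genes with a mean FPKM of at least 1 was -0.21. Rsbn1 rose from 3.02, 3.12 and 3.23 to 14.8, 13.7 and 13.0 FPKM, with each LPS library above every PBS library. Its log2 fold change was 2.11 (limma, SE 0.35, adjusted p = 0.00128, higher in 3 of 3), 2.32 relative to the median, and it was also called without replicate 1 of labelled knockout with PBS, which shares the fit. Ptpn22 had 0.48 (limma, SE 0.07, adjusted p = 0.000661, higher in 3 of 3), under the fold needed, and 0.69 relative to the median. It was called under the other scalings, at 0.71 to 0.73. The other members were not called, at log2 fold changes between -0.26 and 0.26, and Gm10964, with 0 counts in these libraries, could not be.

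In labelled knockout, Olfml3 and Gm10964 left out, Rsbn1 had the highest log2 fold change of the other 8 members for LPS against PBS, at 1.61 (SE 0.35), or 1.09 without replicate 1 of the PBS group. Ptpn22 had 0.45 (SE 0.07), beside 0.48 in wild type.

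In BMDMs the number of members called with LPS depended on scaling. In wild type 6 of 9 members tested were called, all 6 lower, where 40.4% of all genes were, and 2 were called under each of the 4 other scalings, where the count over all genes went from 10899 to between 7865 and 8877. In knockout 5 of 9 were called, all 5 lower, where 38.9% were, and 3 under each of the 4 others, where the count over all genes went from 10488 to between 7526 and 8414. The median of genes with a mean FPKM of at least 1 was itself -0.73 in wild type and -0.62 in knockout. It moved by 0.76 to 0.79 and by 0.66 to 0.68 with edgeR under filterByExpr, DESeq2 and median ratio scaling. Changes are therefore given relative to it as well.

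Ptpn22 had the lowest log2 fold change of the members in wild type and Dclre1b in knockout. Ptpn22 fell from 6.59, 6.79 and 7.12 to 1.19, 1.30 and 1.35 FPKM in wild type. Its log2 fold change was -2.33 (limma, SE 0.06, adjusted p = 7.83e-10, lower in 3 of 3), -1.60 relative to the median, and in knockout -1.92 (limma, SE 0.06, adjusted p = 3.35e-09, lower in 3 of 3), -1.30 relative to it. Dclre1b fell from 1.68, 1.70 and 1.97 to 0.36, 0.41 and 0.45 FPKM. Its log2 fold change was -1.89 (limma, SE 0.10, adjusted p = 5.99e-08, lower in 3 of 3), -1.17 relative to the median, and in knockout -2.23 (limma, adjusted p = 2.17e-08, lower in 3 of 3), -1.61 relative to it. These 2 genes were called in both genotypes under each scaling run.

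Hipk1 fell from 15.7, 15.5 and 15.4 to 5.93, 6.92 and 6.83 FPKM. Its log2 fold change was -1.23 in wild type (limma, SE 0.06, adjusted p = 6.86e-08, lower in 3 of 3), -0.51 relative to the median, and -1.36 in knockout (limma, adjusted p = 3.96e-08, lower in 3 of 3), -0.75 relative to it. In wild type it was not called under the other scalings, at -0.44 to -0.53. Olfml3 had -1.003 in wild type (limma, SE 0.09, adjusted p = 3.32e-06, lower in 3 of 3) and Magi3 -0.98 (limma, SE 0.11, adjusted p = 2e-05, lower in 3 of 3). Relative to the median they were -0.27 and -0.25, and neither was called under the other scalings. Magi3 was -0.96 in knockout, -0.34 relative to the median.

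Ap4b1, Rsbn1 and Phtf1 changed direction with the scaling. Ap4b1 was -0.61 in wild type (limma, SE 0.15, adjusted p = 0.00555, lower in 3 of 3), but 0.12 relative to the median and 0.05 to 0.14 under the other scalings. It also lost its call without wild-type PBS replicate 1 (-0.44), LPS replicate 1 (-0.56) or LPS replicate 3 (-0.53). Rsbn1 was -0.29 (limma, SE 0.09, adjusted p = 0.0241, lower in 3 of 3, not called) and 0.44 relative to the median. Phtf1 was -0.38 (limma, SE 0.08, adjusted p = 0.00187, lower in 3 of 3, not called) and 0.34 relative to it. In knockout Ap4b1 was -0.69, Rsbn1 -0.16 and Phtf1 -0.58, or -0.07, 0.46 and 0.03 relative to the median, and Phtf1 was called without knockout PBS replicate 1 (-0.60), PBS replicate 3 (-0.60) or LPS replicate 2 (-0.64).

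**Figure D3:**
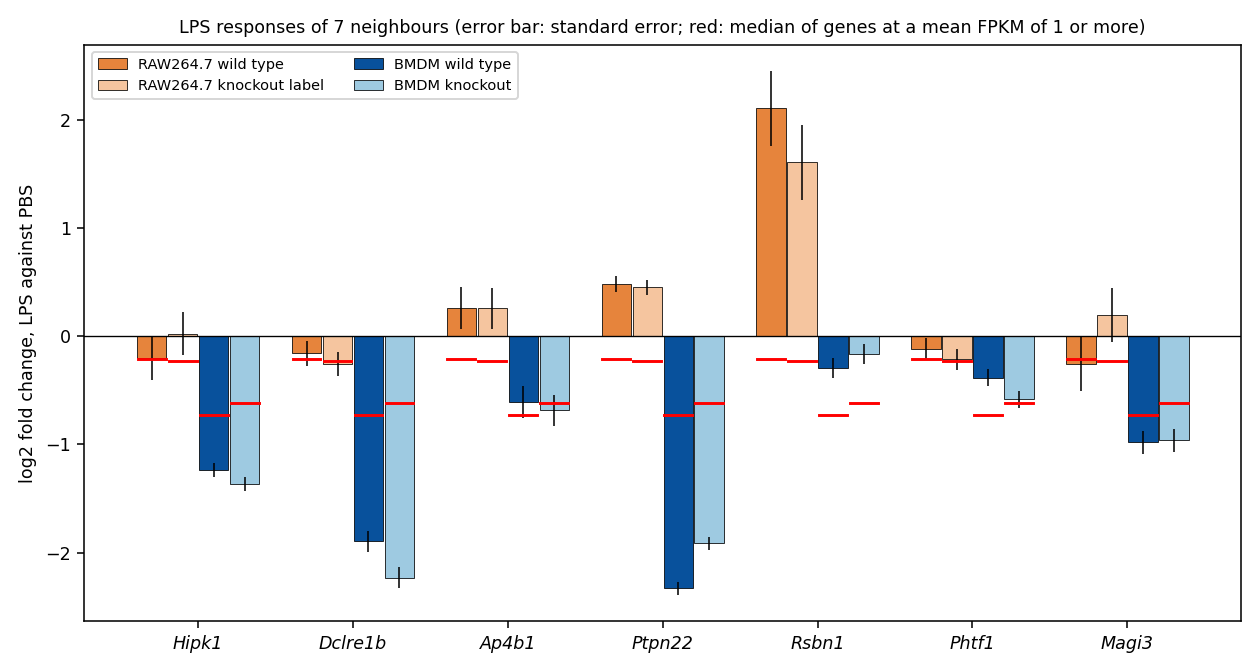
Log2 fold change of LPS against PBS for 7 neighbours (bars; error bars, SE), by cell type and genotype, with the median of genes at a mean FPKM of at least 1 as red lines. In wild type Rsbn1 was 2.11 in RAW264.7 cells and -0.29 in BMDMs, where it is 0.44 relative to the median, and Ptpn22 was 0.48 and -2.33.

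The response to LPS was compared between the genotypes of BMDMs by the interaction term. It was called for 1 of 9 members tested, where 2.93% of all genes were, and its median over genes with a mean FPKM of at least 1 was 0.11. That member was Olfml3 at 0.83 (limma, SE 0.12, adjusted p = 0.00399), with lower values after LPS in 3 of 3 wild-type libraries and 0 to 4 counts in each knockout library. On counts its sign was the opposite, at -1.15, -1.14 and -1.30 by edgeR and DESeq2, and not called. The call was also lost with pseudocounts of 0.01 and 1 and with median ratio scaling, and since the knockout libraries lie at the floor of detection, no difference in response is read from it. Ptpn22 was 0.41 (limma, SE 0.09, adjusted p = 0.0239, with LPS lower in 3 of 3 libraries of each genotype), under the fold needed, and 0.30 relative to the median. The corresponding difference in RAW264.7 cells was 4.13 for Olfml3 and -0.03 for Ptpn22, as a description.

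The promoters are shown for Olfml3, for Rsbn1, which was higher with LPS in RAW264.7 cells of both labels, and for Ap4b1, whose window overlaps that of Dclre1b. They are RefSeq sequences on GRCm38.p6 from 250 bases before to 50 bases after the start, and 9 of 10 members matched. Olfml3 is on the minus strand at chr3:103737952-103738251 and Rsbn1 on the plus strand at chr3:103913870-103914169. That of Ap4b1 is on the plus strand at chr3:103809267-103809566, and 229 of its bases also lie in the window of Dclre1b. Capitals mark a motif match in Rsbn1 and, in that of Ap4b1, the 129 bases between the RefSeq starts of Dclre1b and Ap4b1.
Olfml3: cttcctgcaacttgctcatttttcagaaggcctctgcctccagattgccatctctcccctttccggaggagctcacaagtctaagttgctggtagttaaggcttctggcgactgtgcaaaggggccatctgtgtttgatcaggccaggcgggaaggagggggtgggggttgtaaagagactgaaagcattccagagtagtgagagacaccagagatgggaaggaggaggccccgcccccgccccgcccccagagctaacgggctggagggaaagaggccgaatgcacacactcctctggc
Rsbn1: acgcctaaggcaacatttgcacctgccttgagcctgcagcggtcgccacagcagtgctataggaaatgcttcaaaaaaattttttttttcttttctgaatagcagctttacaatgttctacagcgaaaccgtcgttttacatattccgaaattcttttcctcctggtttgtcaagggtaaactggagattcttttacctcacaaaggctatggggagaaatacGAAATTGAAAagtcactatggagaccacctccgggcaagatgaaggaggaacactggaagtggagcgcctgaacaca
Ap4b1: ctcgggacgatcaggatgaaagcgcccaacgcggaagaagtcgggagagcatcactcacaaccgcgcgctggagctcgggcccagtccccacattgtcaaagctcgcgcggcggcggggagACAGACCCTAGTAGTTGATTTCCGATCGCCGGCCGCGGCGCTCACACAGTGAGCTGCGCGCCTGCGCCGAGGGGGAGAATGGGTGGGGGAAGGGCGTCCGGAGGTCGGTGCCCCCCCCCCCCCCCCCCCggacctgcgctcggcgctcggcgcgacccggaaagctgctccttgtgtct
Both strands were searched for short forms of the kappaB, AP-1, ISRE (of interferon factors) and PU.1 motifs, which 1.63%, 7.81%, 3.44% and 13.6% of 32851 promoters hold. The ISRE form occurs in 2 of the 9 promoters, in Rsbn1 at -27 and in Syt6 at -203, and the PU.1 form in 1, in Ptpn22 at -9, and the other forms in 0. A match is a description of the sequence only. G and C make up 58% of the Olfml3 window, with 8 CG pairs, and 44% of that of Rsbn1, with 10, against a median of 52.7% and 7 over all promoters. The windows of Dclre1b and Ap4b1 hold 70.7% and 69.7%, with 32 and 36 CG pairs. In wild-type BMDMs, LPS against PBS was -1.17 for Dclre1b and 0.12 for Ap4b1 relative to the median.

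The flank was taken as every gene with a start within 1 Mb of that of Olfml3, members left out. It held 71 genes, of which 40 had any FPKM above 0 and 11 a mean of at least 1 in a group. In RAW264.7 labelled knockout against wild type, 1 of 36 flanking genes tested (2.78%) was called with PBS, where 8.55% of all genes were, and 7 of 36 (19.4%) with LPS, 6 of them higher, where 17.3% were. With PBS this count was 6 of 35 without replicate 1 of labelled knockout, where 5523 of 26538 genes were called, and 0 without any 1 of the other 5 libraries compared. After LPS it was 3, 4 and 2 without wild-type replicates 1, 2 and 3, and 5, 4 and 2 without labelled knockout replicates 1, 2 and 3.

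Trim33, a ubiquitin ligase of the TGF-beta pathway, had FPKM 5.00, 4.73 and 5.01 in wild type and 7.96, 7.96 and 8.14 in labelled knockout with LPS, a log2 fold change of 0.70 (SE 0.17), with the call lost without wild-type replicate 2 (0.67) or labelled knockout replicate 3 (0.69). Sycp1, a protein of meiotic chromosome pairing, had 7, 31 and 13 counts in wild type and 148, 176 and 143 in labelled knockout with LPS. With PBS its labelled knockout counts were 6, 146 and 116, so replicate 1 lay beside the 6, 6 and 10 counts of wild type. Lrig2, a membrane protein with leucine-rich repeats, was 0.63 (SE 0.18) and Dennd2c, a regulator of Rab GTPases, 0.60 (SE 0.15). The call of Lrig2 was lost without any 1 of the 6 libraries compared (0.55 to 0.69), and that of Dennd2c without wild-type replicate 1 (0.59) or 3 (0.55) or labelled knockout replicate 1 (0.50) or 2 (0.61). Gm43582 had 1 count in wild type and 13 in labelled knockout.

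**Figure D4:**
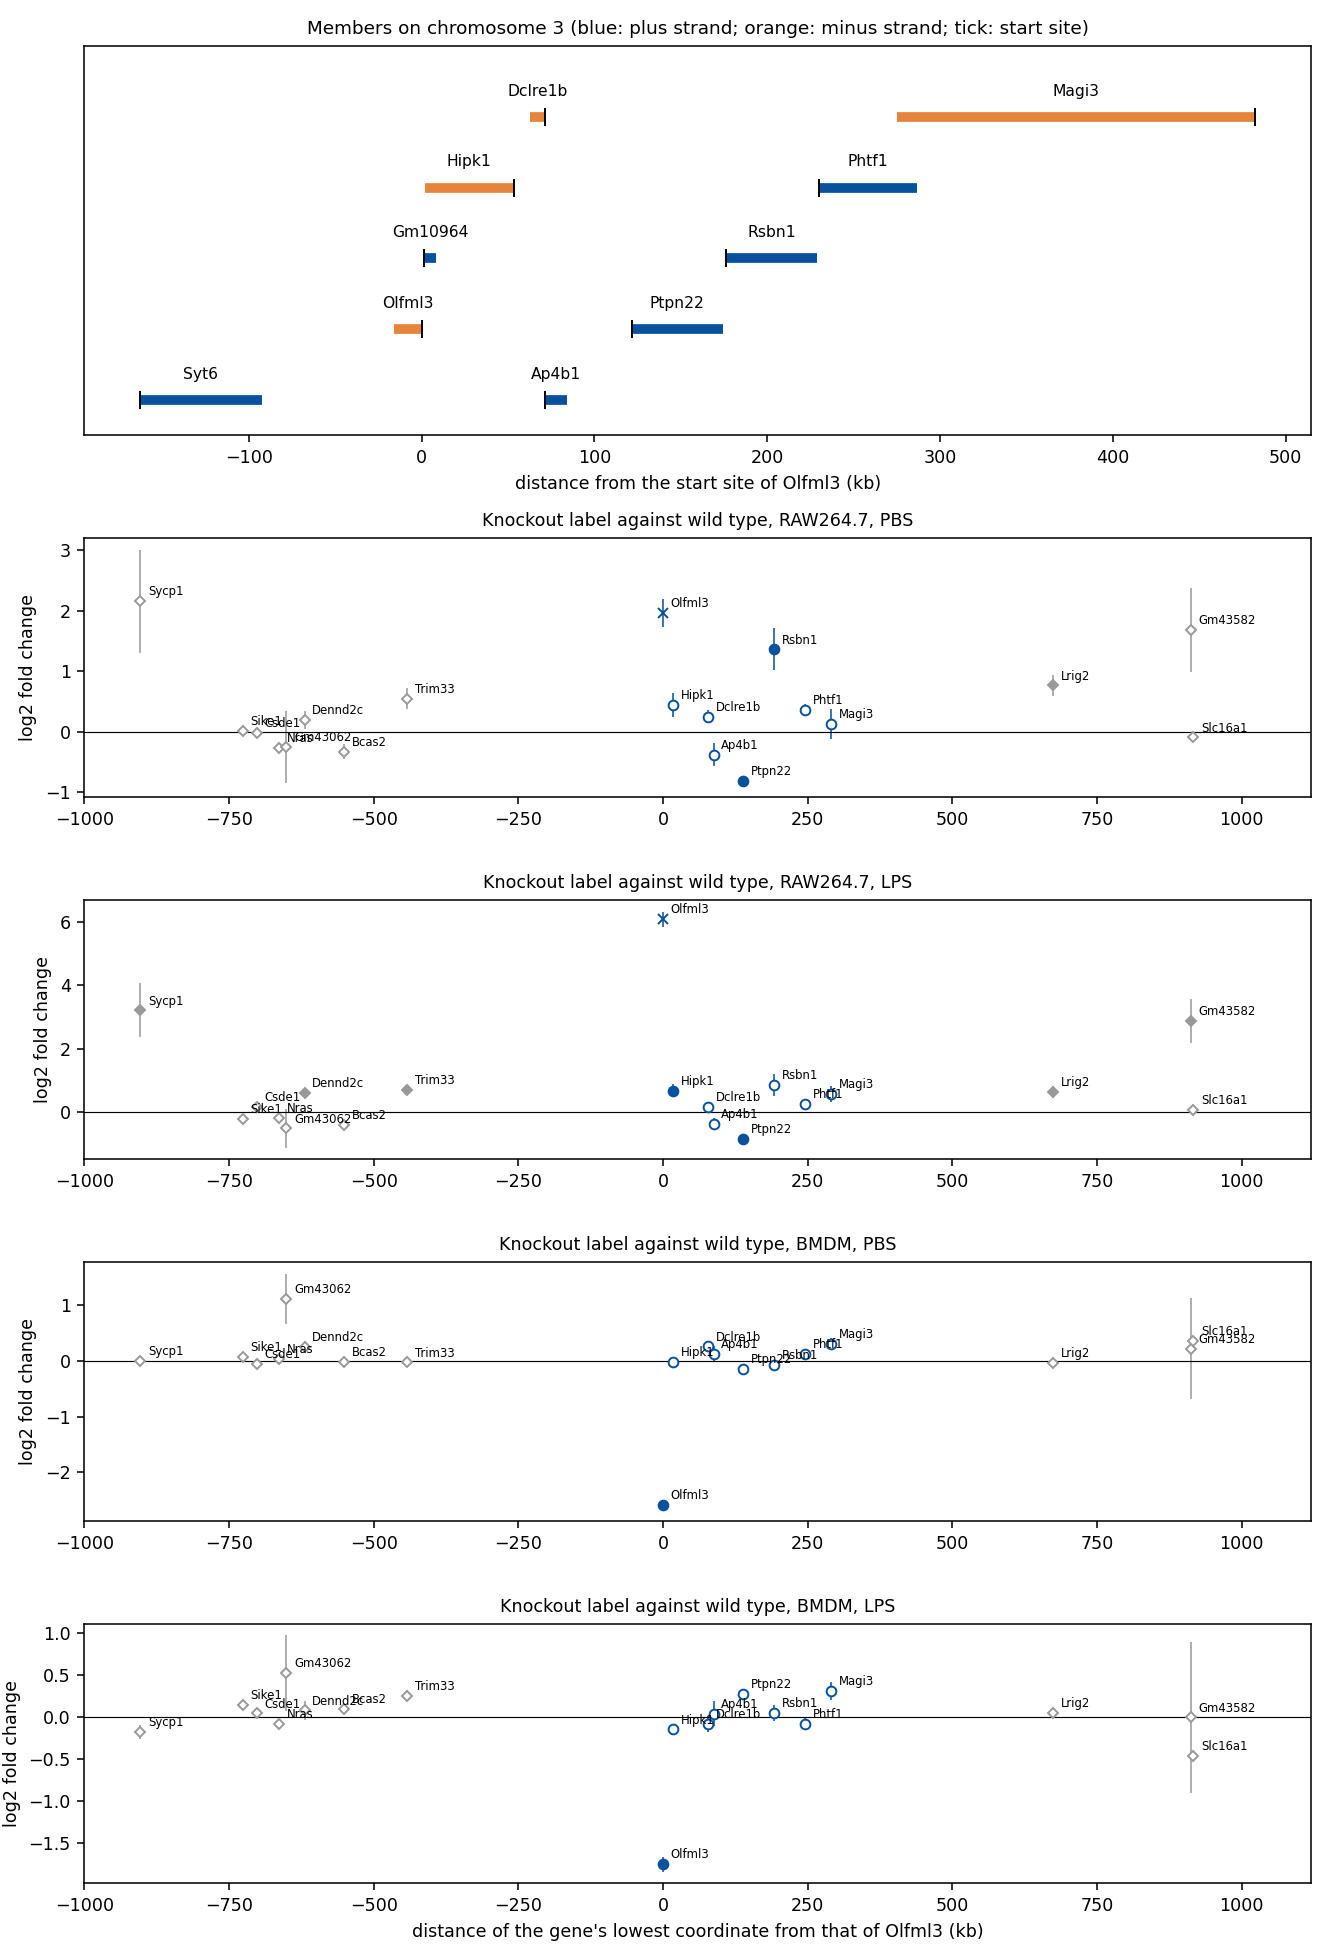
Map of the 10 members by distance in kb from the start site of Olfml3, and log2 fold change of knockout label against wild type (points with SE; circles, members; diamonds, flanking genes; filled, called; cross, Olfml3 in RAW264.7 cells, not tested) against distance in kb between lowest coordinates, for genes reaching a mean FPKM of 1 in a group of either cell type, Gm10964 left out because wild-type RAW264.7 cells had 0 counts. With LPS, Olfml3 was 6.10 in RAW264.7 cells and -1.75 in BMDMs, and Ptpn22 was -0.85 and 0.28.

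In BMDM knockout against wild type limma called 0 of 30 flanking genes with PBS (4 at an unadjusted p under 0.05), where 1.82% of all genes were, and 0 of 30 with LPS (6 unadjusted), where 4.76% were. edgeR and DESeq2 called 0 with PBS and 1 with LPS, Slc16a1, the lactate transporter, and limma called 1 with LPS without wild-type LPS replicate 1 or knockout LPS replicate 1. The interaction was called for 1 of 30 flanking genes (2 without knockout LPS replicate 1), where 2.93% of all genes were. This was Slc16a1 at -0.82 (limma, SE 0.09, adjusted p = 0.000763, lower with LPS in 3 of 3 knockout libraries), from FPKM of 5.52 to 4.99 in wild type and 7.11 to 3.60 in knockout. With LPS against PBS 8 of 30 flanking genes (26.7%) were called in BMDM wild type, where 40.4% of all genes were, and 3 of 36 (8.33%) in RAW264.7 wild type, where 18.3% were. Dennd2c fell in both, with log2 fold changes of -3.67 (limma, adjusted p = 2.02e-09, lower in 3 of 3) and -2.61 (limma, adjusted p = 1.21e-06, lower in 3 of 3), or -2.95 and -2.40 relative to the medians. Bcas2, a splicing factor, had -1.54 in BMDMs (-0.81 relative to the median) and -0.78 in RAW264.7 cells, the latter not called under other scalings (-0.54 to -0.56). Sike1, an inhibitor of the kinase IKK-epsilon, was -1.01 in BMDMs, or -0.28 relative to the median.

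Olfml3 belongs to a family with an OLF domain, of which 12 other genes were followed. In RAW264.7 wild type LPS called 4 of 10 tested, 1 higher and 3 lower, where 18.3% of all genes were called, and in BMDM wild type 3 of 9, 1 higher and 2 lower, where 40.4% were. In BMDMs the lower calls were Olfml2b at -1.21, or -0.49 relative to the median, and Olfm2. With 0 against 10 counts, Olfm2 was -0.59, or 0.14 relative to the median. The Olfm2 call was lost with DESeq2, with median ratio scaling and without wild-type PBS replicate 1 (-0.38). Olfm1, a secreted neuronal glycoprotein, had the highest FPKM of them in RAW264.7 cells, with means of 186 in wild type and 138 in labelled knockout with PBS and 80.8 and 46.2 with LPS. Adgrl2, a latrophilin adhesion receptor, rose with LPS in wild type of both cell types, by 1.79 in RAW264.7 cells (limma, adjusted p = 3.8e-05, higher in 3 of 3) and by 1.07 in BMDMs (limma, adjusted p = 3.36e-06, higher in 3 of 3), or 2.00 and 1.80 relative to the medians. In RAW264.7 labelled knockout it was 0.0433 and 0.0567 FPKM with PBS and LPS against 0.533 and 2.07 in wild type. In BMDM knockout against wild type limma called 0 of 9 with PBS (4 at an unadjusted p under 0.05, edgeR 0 and DESeq2 0 called), where 1.82% of all genes were, and 1 of 9 with LPS, where 4.76% were. The latter was Adgrl2 at 0.72 (limma, adjusted p = 0.000657, higher in 3 of 3), which is 0.57 relative to the median and not called under other scalings. Its interaction was 0.72 (limma, adjusted p = 0.0114, with LPS higher in 3 of 3 of each genotype). In the labelled knockout against wild type 1 of 10 was called with PBS (2 without replicate 1), where 8.55% of all genes were, and 4 of 10 with LPS, where 17.3% were. Olfml1 was 0 in all 24 libraries.

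The genes most like Olfml3 over the 12 RAW264.7 libraries, by Pearson's r of log2 FPKM among 12307 genes, were Trim36 (0.980), Gm6445 (0.970), Birc2 (0.969), 9330159M07Rik (0.966) and Qrich1 (0.965). Those most like Gm10964 were 2410002F23Rik (0.993), Adpgk (0.987), Tmem123 (0.985), Rnf180 (0.984) and Gng12 (0.977). Birc2, 9330159M07Rik, Qrich1, Adpgk and Tmem123 lie on chromosome 9, and the others on chromosomes 18, 19, 7, 13 and 6. In BMDMs, among 11438 genes, those most like Olfml3 were Shisa5 (0.977), Ctss (0.977), mt-Rnr1 (0.976), H2-Aa (0.968) and Pla2g7 (0.962). The 12 libraries of a cell type share 4 groups, and these values are descriptions. For Gm10964 in BMDMs, with few counts, Scarna9 (0.708), Nif3l1 (0.703), Usp27x (0.693), Msl3l2 (0.683) and Ubtd1 (0.673) came closest, which is no finding. Of genes studied with OLFML3, Acod1, which makes itaconate, had mean FPKM 2.76 and 2200 with PBS and LPS in RAW264.7 wild type and 0.75 and 2130 in labelled knockout, while Aifm1, a mitochondrial oxidoreductase, had 32.9 and 24.8, and 30.5 and 22.1. In BMDMs Acod1 had 1.29 and 1893 in wild type and 1.69 and 1944 in knockout, and Aifm1 8.96 and 2.79, and 8.60 and 3.17.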

How the data were processed

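Poly(A) RNA was sequenced as paired 150-base reads from 24 libraries. For each cell type the authors deposited gene counts beside FPKM. The deposited count values are whole numbers, and the deposited FPKM values match counts over exonic length and library total within 1% for 99.9% of values above 50 counts in RAW264.7 and 99.5% in BMDMs. The build in the labels is mm10, table coordinates of the members lie 92684 bases below GRCm38 with the same lengths, while aligner, counting program and strand setting are missing from the sources. Tables were read in R 4.3.3 with version 1.17.8 of data.table. limma 3.58.1 was fitted per cell type to log2(FPKM + 0.1) of 4 groups over 12 libraries, for genes with FPKM above 0 in at least 1 library, with Benjamini-Hochberg adjustment over all genes tested. Called means adjusted p under 0.05 and fold change of at least 1.5. Contrasts with RAW264.7 libraries labelled knockout are given without p. Total counts per library were 11638273 to 16478616 in RAW264.7 and 17121240 to 22873094 in BMDMs. Counting intervals are 95%, and the floor is 3 counts over a group.

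Alternatives were pseudocounts of 0.01 and 1, a filter of FPKM 0.1 in 3 libraries, edgeR 4.0.16 (quasi-likelihood, TMM, with and without filterByExpr), DESeq2 1.42.0, median ratio scaling of FPKM, a replicate block, only the compared groups in the fit, and each library left out. Leaving out replicate 1 of RAW264.7 labelled knockout with PBS from contrasts that do not contain it was chosen after seeing the data. Genes named are the 10 members; genes within 1 Mb of the start of Olfml3 that were called in a contrast at a mean FPKM of at least 1 in a group; 12 OLF family genes; the 5 genes most like Olfml3 and Gm10964 per cell type; and Acod1 and Aifm1. Members and lists, cell type markers included, were chosen with earlier results of these data known. Figures were drawn with Python 3.11.15 and matplotlib 3.10.9.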

Additional observations from a re-analysis of the deposited data

Results flagged for a closer look

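In BMDMs the interaction term of genotype and LPS was called by limma for Slc16a1 (-0.82 on the log2 scale) and Adgrl2 (0.72). Its median over genes with a mean FPKM of at least 1 was 0.11. The difference of Adgrl2 between genotypes with LPS was not called under other scalings. The LPS response of Slc16a1 in wild type changed sign under other scalings. The interaction term also passed for Olfml3 (0.83), whose knockout libraries hold 0 to 4 counts. Its sign turns on counts, and its call is lost with pseudocounts of 0.01 and 1 and under the 4 other scalings. No difference in response is therefore read from it.

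In the following, the groups did not overlap in either cell type and lay in opposite order in RAW264.7 cells and BMDMs, and the difference between the cell types was not tested. For knockout label against wild type with PBS, Olfml3 was 1.96 in RAW264.7 cells and -2.58 in BMDMs. Olfm1 was -0.44 and 0.25, and Olfml2b was -0.57 and 0.44, the former from 2 against 9 counts. With LPS, Olfml3 was 6.10 and -1.75. Ptpn22 was -0.85 and 0.28, Sike1 -0.21 and 0.15, and Slc16a1 0.08 and -0.46. Olfm1 was -0.81 and 0.40, and Adgrl2 was -3.79 and 0.72.

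For LPS against PBS in wild type, Ptpn22 was 0.48 in RAW264.7 cells and -2.33 in BMDMs, and Rsbn1 was 2.11 and -0.29. Lrig2 was 0.29 and -0.49, and Olfm1 was -1.21 and 0.23. In the knockout label, Ptpn22 was 0.45 and -1.92, Rsbn1 1.61 and -0.16, and Olfm1 -1.57 and 0.38. In BMDMs the values of Rsbn1 and Lrig2 are above 0 relative to the median of genes with a mean FPKM of at least 1 (0.44 and 0.24 in wild type), so the opposite direction depends on scaling. The BMDM value of Sike1 for knockout against wild type with LPS lies at the median of that comparison (0.14).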

How the results depend on the processing

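The number of members called moved with scaling and pseudocount. For LPS against PBS in RAW264.7 wild type it was 1, and 2 with edgeR (with and without filterByExpr), DESeq2 and median ratio scaling. For BMDM knockout with LPS it was 1, and 0 with a pseudocount of 1, where Olfml3 was -0.31. For LPS against PBS in BMDM wild type it was 6, 3 with a pseudocount of 1 and 2 under the 4 other scalings. In BMDM knockout it was 5, and 3 with a pseudocount of 1 and under the 4 other scalings. For the interaction it was 1, and 0 with pseudocounts of 0.01 and 1 and under the 4 other scalings. With each library of the comparison left out in turn, members called ran from 1 to 1 in RAW264.7 wild type and in BMDM knockout with PBS and with LPS, from 5 to 6 for LPS in BMDMs of each genotype and from 1 to 1 for the interaction.

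Values called in a setting and reversed in another were Ap4b1 for LPS in BMDM wild type (0.11 and 0.0468 with edgeR, 0.14 with DESeq2 and 0.14 with median ratio scaling), Slc16a1 for the same (0.63, 0.66 and 0.65 with edgeR under filterByExpr, DESeq2 and median ratio scaling) and the Olfml3 interaction (-1.15, -1.14 and -1.30 with edgeR and DESeq2). Values of Rsbn1, Phtf1 and Lrig2 for LPS in BMDM wild type, called in none of these settings, also changed sign under the 4 other scalings. The cause was not tested. Scaling shifted the median of genes with a mean FPKM of at least 1 by 0.22 to 0.24 for LPS in RAW264.7 wild type and by -0.14 to -0.15 for BMDM knockout with LPS. The share of calls that were higher went from 19.6% to 44.8%, 49.2% and 48% for LPS in BMDM wild type with edgeR, DESeq2 and median ratio scaling, from 20.6% to 44.7%, 48% and 46.8% in BMDM knockout, from 31.7% to 46.9%, 50.1% and 49.7% in RAW264.7 wild type, from 33.8% to 46.5%, 50.5% and 51.7% in labelled knockout, from 67.9% to 49.4%, 48.2% and 43.3% for BMDM knockout with LPS and, for the interaction, from 65.1% to 55.3%, 53.6% and 46.8%.

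Genes called for RAW264.7 labelled knockout with PBS ranged from 997 to 5523 around 2287. With the replicate number as a block, Rsbn1 with PBS (1.36) and Hipk1 with LPS (0.67) lost their calls in labelled knockout. Replicate numbers did not mark pairs of libraries across groups. Pairing correlations were -0.039 to 0.084 over 18 pairs in RAW264.7 and -0.058 to 0.071 over 18 in BMDMs. These are not correlations of levels, which per library averaged 0.9513 to 0.9815 with the other genotype under the same treatment. Depth limits Gm10964 in BMDMs, Syt6, and Olfml3 in the BMDM knockout.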
